A study of Mus musculus with 12 samples.

Results

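The NF-κB subunits and inhibitors examined here were a set of 10 genes defined by name: the subunit genes Nfkb1, Nfkb2, Rel, Rela and Relb, the classical inhibitor genes Nfkbia and Nfkbie, the nuclear IκB genes Nfkbiz and Bcl3, and Tnfaip3, which encodes a ubiquitin-editing enzyme. All 10 were among the 56748 genes of the count table, and all 10 passed the filter on low counts that left 15033 genes for testing. RNA was sequenced from bone marrow–derived macrophages (BMDM) of C57BL/6J mice, grown with 20 ng/mL M-CSF and polarised toward an M2-like, immune-regulatory state with 10 ng/mL IL-4 for 48 hours. These cells were then cultured for 72 hours in 4 conditions of 3 libraries each. Untreated control cells received medium alone. The eGFP supernatant came from Dox-treated YUMM5.2 eGFP cells, a mouse melanoma line carrying the control construct, and the Ifnb1eGFP supernatant came from YUMM5.2 cells with a Dox-inducible Ifnb1 construct. Dilution brought the latter to an IFNβ concentration of 1500 pg/mL, which was matched with recombinant protein in the rIFNβ condition, and the control supernatant was used at an equal dilution. Both supernatants came from donor cells given 1 µg/mL Dox for 72 hours, and the medium conditions had no supernatant and no donor-cell Dox. The labels do not say whether libraries of a condition came from separate mice or cultures, so the p-values measure the spread between these libraries, which may be technical.

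NF-κB is a family of dimeric transcription factors that are held in the cytoplasm by inhibitors of the IκB class until receptors for cytokines or microbial products trigger the IκB kinase, which marks the inhibitor for degradation. In the canonical branch, dimers that contain the products of Rela, Rel and Nfkb1 enter the nucleus, whereas the non-canonical branch processes the Nfkb2 product and releases dimers with Relb. Several of the inhibitor genes are themselves textbook NF-κB targets, which makes the pathway self-limiting, and in macrophages it controls cytokines, chemokines and survival genes.

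To show the kind of element through which these genes can regulate each other, promoter windows from 250 bases before to 50 bases after the transcription start (RefSeq, GRCm38.p6) were searched on both strands for the κB consensus. The table of windows listed 7 of the 10 members with 10 windows in all, and Nfkb1, Relb and Nfkbiz had no entry. The consensus was present in 8 of the 10 windows, beside 8.46% of all 32851 windows of this length, and in 6 of the 7 members, all but Rela. These windows are not all separate, since 2 windows of Nfkb2 overlap and share a match, the only match of the later window. The share of all windows does not apply to the count of members, which can have several windows. The core of the interferon-stimulated response element (GAAA, any 2 bases, GAAA) was in 0 of the 10 windows (3.44% of all windows), and the core of the STAT dimer site (TTC, any 3 bases, GAA) was in 1 of 10, in a window of Nfkb2 (8.3% of all windows). These letter matches describe the windows and are not measured binding sites. Stretches with a match from 1 window of each of the 6 members, printed 5′ to 3′ on the strand of the gene with the matching bases in capitals, were located by an exact and unique match in GRCm39 as follows.
Nfkb2 (chr19:46293116-46293175, plus strand, overlapping and separate matches): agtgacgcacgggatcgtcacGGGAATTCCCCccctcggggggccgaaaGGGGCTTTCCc
Rel (chr11:23721030-23721079, minus strand): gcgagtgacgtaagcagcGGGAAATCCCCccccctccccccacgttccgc
Nfkbia (chr12:55539433-55539512, minus strand): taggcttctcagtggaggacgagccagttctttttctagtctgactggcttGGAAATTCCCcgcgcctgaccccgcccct
Nfkbie (chr17:45866501-45866550, plus strand): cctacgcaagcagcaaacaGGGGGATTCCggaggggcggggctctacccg
Bcl3 (chr7:19556665-19556693, minus strand): ttcagtcggcggcagGGGAAGTCCCgctg
Tnfaip3 (chr10:18891159-18891293, minus strand): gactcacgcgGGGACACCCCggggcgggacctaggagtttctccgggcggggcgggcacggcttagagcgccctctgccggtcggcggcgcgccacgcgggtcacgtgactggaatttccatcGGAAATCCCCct
Of these, matches in Nfkb2, Rel, Bcl3 and Tnfaip3 met the consensus on both strands. Further matches in the other 2 windows of Nfkb2 are not printed. The stretches of Nfkb2, Rel, Bcl3 and Tnfaip3 lie inside the gene positions printed below, which begin upstream of the RefSeq starts used for these windows. Members with a match moved in either direction or did not pass the test in the comparisons described next.

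The libraries held 31526004 to 45348410 counts. Genes that mark macrophages were high in every library (Adgre1 at 1484 to 1836 CPM, normalized read counts scaled to a common library size, and Csf1r at 1023 to 1189), whereas the summed markers of lymphocytes stayed at or below 0.354 CPM and those of neutrophils at or below 5.72 CPM. The 5 summed fibroblast markers were at 19.8 to 44.4 CPM in unexposed and 33.7 to 58.3 CPM in exposed libraries, and their part in the results was not tested. Of the genes that mark the M2-like state, Mrc1 and Retnla were present (609 to 839 and 45.4 to 71.3 CPM), but Arg1 was at 0.208 to 0.877 CPM in all libraries. The summed level of 19 interferon-stimulated genes was 308 to 432 CPM in untreated controls, 14483 to 16215 CPM in cells with Ifnb1eGFP supernatant and 15353 to 16152 CPM with rIFNβ, and all 19 passed the test in both IFNβ comparisons. With eGFP supernatant the sum was 450.6, 1420 and 324.8 CPM, so replicate 2 stood above the other 2 libraries of its condition. The 3 Ifnb1eGFP supernatant libraries also differed from each other according to the GC content of the genes. Genes with a GC content of at least 54.6% deviated from the condition mean, relative to genes of at most 43.7%, by −0.35, 0.363 and −0.013 on the log2 scale in replicates 1, 2 and 3, against −0.115 to 0.079 in the other 9 libraries. Of the GC-rich members, Rela, Bcl3, Nfkb2 and Relb had wide replicate ranges in this condition. Nfkbie, with a GC content (55.4%) just above that of Relb (55.1%), had a log2 range of 0.265, below the median of all genes (0.286). Nfkbia, with a GC content of 52.9%, had a range of 0.451. The values of Rela, Bcl3, Nfkb2 and Relb are also given after removal of each library's trend with GC content and transcript length, an alternative chosen after seeing the data. That alternative removes any true relation of a condition's changes with GC content as well.

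**Figure D1:**
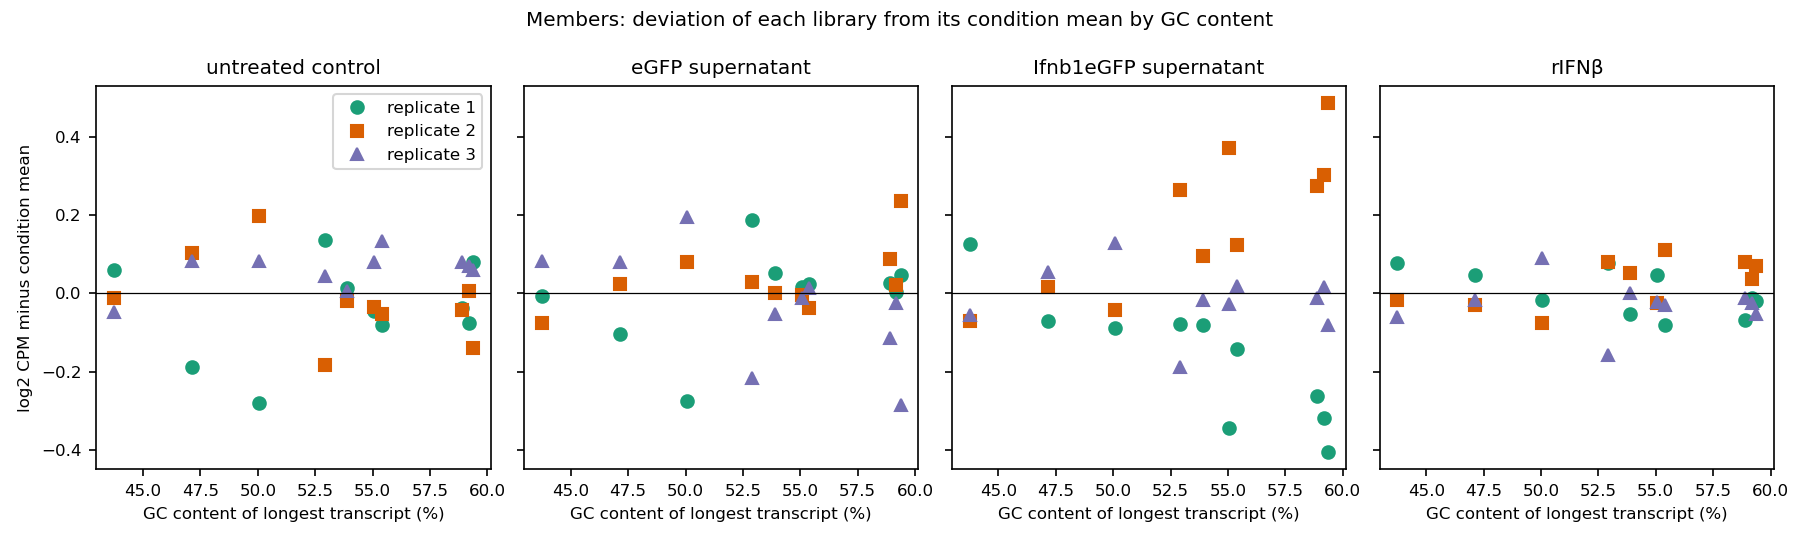
Deviation of each library from its condition mean (log2 CPM, vertical axis) for the 10 members by GC content of the transcript (percent, horizontal axis), with a panel for each condition and a symbol for each replicate. In the Ifnb1eGFP supernatant panel the GC-rich members lie below the mean in replicate 1 and above it in replicate 2, and the members with the lowest GC content, Rel and Tnfaip3, lie closer to it.

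Among the members, IFNβ from either source raised the nuclear IκB genes Nfkbiz and Bcl3 and lowered Tnfaip3, and moved the others by less. Against eGFP supernatant, Ifnb1eGFP supernatant raised 5 of the 10 members (Nfkbiz, Bcl3, Nfkbia, Nfkb1 and Rel) and lowered 1 (Tnfaip3) at an adjusted p of at most 0.05 in edgeR's quasi-likelihood test. Nfkb2, Rela, Relb and Nfkbie did not pass. The share of all tested genes called was 55.1% in this comparison (30.1% higher, 25.0% lower), so that 6 of 10 members is close to the background. Against untreated controls, rIFNβ raised the same 5 members and Rela, and lowered Tnfaip3, that is 7 of 10 beside 55.3% of all genes (30.7% higher, 24.6% lower). The median log2 fold change of the members was 0.20 and 0.25, respectively, and that of all tested genes was 0.03 and 0.04. The 3 exposed and 3 unexposed libraries did not overlap for 5 members higher and 2 lower (Nfkbie and Tnfaip3) in the supernatant comparison, beside 32.4% and 26.6% of all genes, and for 6 higher and 2 lower with rIFNβ, beside 36.4% and 29.7%. No member reached the stricter limits of a log2 fold change of 2 and an adjusted p of 0.01 in either comparison, which 5.39% and 5.77% of all genes did. In bulk RNA, a change in the number of cells of a type and a change in the RNA per cell cannot be told apart.

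**Figure D2:**
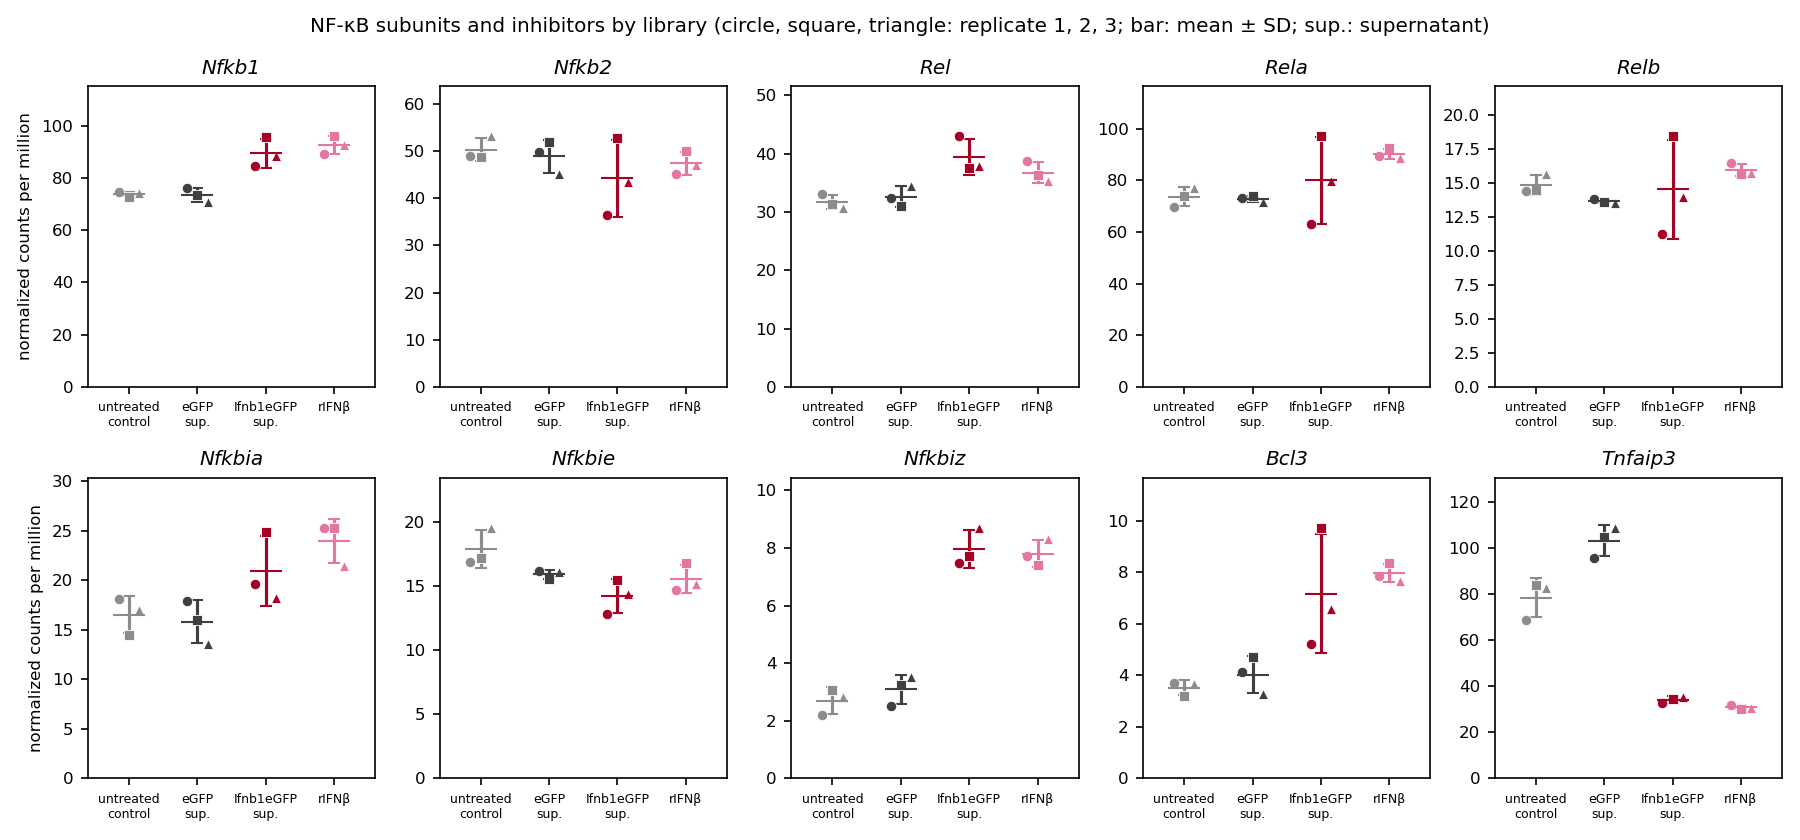
Normalized CPM (vertical axes, each from 0) of the 10 members in the 4 conditions, with a symbol for each library and bars for mean ± SD (n = 3). Tnfaip3 lies between 30.2 and 35.4 CPM in the 6 IFNβ-exposed libraries and between 68.5 and 108.7 CPM in the 6 unexposed libraries, and Nfkbiz lies between 7.40 and 8.71 CPM against 2.19 to 3.51 CPM.

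**Figure D3:**
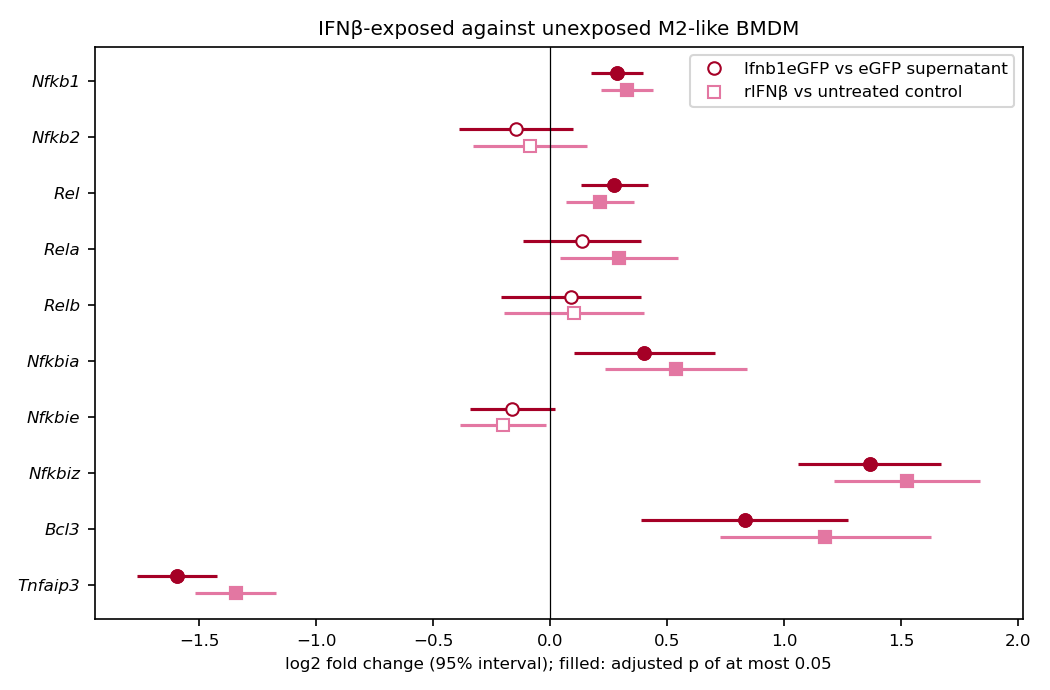
Log2 fold change (horizontal axis) of each member with its 95% interval for Ifnb1eGFP against eGFP supernatant (circles) and rIFNβ against untreated control (squares). Filled symbols have an adjusted p of at most 0.05, which Nfkbiz, Bcl3, Nfkbia, Nfkb1 and Rel reach above 0 and Tnfaip3 below 0 in both comparisons.

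Among the canonical subunits, Nfkb1 (chr3:135290264-135397742, minus strand; GRCm39), whose product is cut to the DNA-binding subunit that pairs with Rela, was raised by both sources of IFNβ. It was measured at 74.5, 72.9 and 74.0 CPM in untreated controls and at 76.1, 73.6 and 70.8 CPM with eGFP supernatant. With Ifnb1eGFP supernatant it was at 84.6, 95.5 and 88.4 CPM, and with rIFNβ at 89.3, 96.0 and 92.7 CPM. All exposed libraries lay above all unexposed ones. The log2 fold change was 0.28 ± 0.05 (SE; adjusted p = 0.00056) against eGFP supernatant and 0.33 ± 0.05 (adjusted p = 0.000184) against untreated controls.

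Rel (chr11:23686847-23721264, minus strand), which encodes the c-Rel subunit that is prominent in myeloid and lymphoid cells, was at 33.0, 31.4 and 30.6 CPM in untreated controls and at 32.4, 30.9 and 34.5 CPM with eGFP supernatant. It was at 43.0, 37.5 and 37.9 CPM with Ifnb1eGFP supernatant and at 38.7, 36.3 and 35.2 CPM with rIFNβ. Exposed and unexposed libraries did not overlap, but the gap between the nearest was small. The log2 fold changes were 0.27 ± 0.07 (adjusted p = 0.00407) and 0.22 ± 0.07 (adjusted p = 0.0161). The latter call was lost with DESeq2 (0.17, adjusted p = 0.0767) and with RLE factors (0.17, adjusted p = 0.0688). It was also lost without untreated replicate 3 (0.19, adjusted p = 0.062) and without rIFNβ replicate 1 (0.18, adjusted p = 0.0665). With the GC and length trend removed the log2 fold changes of Rel were 0.13 and 0.14 (adjusted p = 0.0176 and 0.0147).

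Rela (chr19:5687493-5698161, plus strand), which encodes the main transactivating subunit of the canonical dimer, was at 69.7, 73.8 and 77.1 CPM in untreated controls and at 73.1, 73.9 and 71.7 CPM with eGFP supernatant. With Ifnb1eGFP supernatant it was at 63.3, 97.1 and 79.7 CPM, a range that spans the eGFP values on both sides, and with rIFNβ at 89.4, 92.5 and 88.7 CPM, above all controls. Its log2 fold change was 0.14 (95% interval −0.12 to 0.39, adjusted p = 0.344) against eGFP supernatant and 0.29 (0.04 to 0.55, adjusted p = 0.0479) against untreated controls. Without Ifnb1eGFP replicate 1 the former was 0.24 (adjusted p = 0.00879) and without replicate 2 it was −0.03 (adjusted p = 0.806). The rIFNβ call was lost with DESeq2 (0.25, adjusted p = 0.0521) and in 10 of the 12 fits that left out a library. After removal of the GC and length trend, Rela was higher in both comparisons, by 0.43 (adjusted p = 7.39e-06) and 0.41 (adjusted p = 1.1e-05).

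The subunits of the non-canonical branch did not pass the test in either comparison. Relb (chr7:19339017-19363425, minus strand) was at 14.4, 14.5 and 15.7 CPM in untreated controls, 13.8, 13.6 and 13.6 CPM with eGFP supernatant, 11.2, 18.5 and 14.0 CPM after Ifnb1eGFP supernatant, and 16.5, 15.7 and 15.7 CPM with rIFNβ. Exposed and unexposed libraries overlapped in both comparisons. The intervals of its log2 fold change were −0.21 to 0.39 and −0.20 to 0.40, and the first value was −0.12 without Ifnb1eGFP replicate 2. With the GC and length trend removed, Relb was at 0.20 (adjusted p = 0.0567) and 0.11 (adjusted p = 0.274).

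Nfkb2 (chr19:46292759-46303812, plus strand), whose product is the precursor that partners with RelB, was at 49.0, 48.8 and 53.2 CPM in untreated controls and at 49.8, 51.9 and 45.1 CPM with eGFP supernatant. It was at 36.5, 52.9 and 43.4 CPM with Ifnb1eGFP supernatant and at 45.2, 50.1 and 47.0 CPM with rIFNβ, so that all groups overlapped. The log2 fold changes were −0.15 (95% interval −0.39 to 0.10, adjusted p = 0.288) and −0.09 (−0.33 to 0.16, adjusted p = 0.539). Their sign depended on the treatment of GC content, since with the trend removed Nfkb2 was called higher in both comparisons (0.24, adjusted p = 0.00133, and 0.17, adjusted p = 0.0109), whereas without Ifnb1eGFP replicate 2 it was called lower in the former (−0.29, adjusted p = 0.0126). Exons of Nfkb2 also overlap those of Psd over 1933 bases and of the non-coding gene 4833438C02Rik over 1081 bases, both on the opposite strand, and these were at 1.37 to 3.56 and 3.51 to 5.77 CPM. The kit marks strand, but whether the counting used it is not given in the sources used here, and the part of these genes in the Nfkb2 values was not tested.

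Per kilobase of the canonical transcript, a scale for comparing genes with each other, Rela had the highest level of all members in each condition (26.8 to 33.2 CPM per kb). Nfkb1 followed (15.6 to 19.7 CPM per kb), but its place rested on this length. Per kilobase of all exons of a gene, Rela was again highest in untreated controls (22.5 CPM per kb). Nfkbia (8.54), Tnfaip3 (8.06) and Nfkb2 (6.37) then lay above Nfkb1 (5.74). The levels and shares below use the canonical length. The mean level of Rel and Relb was at most 5.09 CPM per kb, and their ranges overlapped in every condition. The summed share of the non-canonical subunits Relb and Nfkb2 among the 5 subunits was 19.8% to 20.6% in untreated controls and 18.9% to 20.0% with eGFP supernatant. It was 15.7%, 17.9% and 16.6% with Ifnb1eGFP supernatant and 16.87% to 16.94% with rIFNβ. The exposed libraries lay below the unexposed ones, as a description without a test. The share of Nfkb2 alone was 11.8% to 13.1% in unexposed and 9.72% to 10.6% in exposed libraries, whereas that of Relb overlapped (6.87% to 7.64% and 5.96% to 7.34%).

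Of the classical inhibitors, which mask the nuclear localisation signal of the dimers, Nfkbia rose and Nfkbie did not pass the test. Nfkbia (chr12:55535332-55539432, minus strand) encodes IκBα, which is resynthesised after each round of activation. It was at 18.1, 14.5 and 17.0 CPM in untreated controls, 17.9, 16.03 and 13.5 CPM with eGFP supernatant, 19.6, 24.9 and 18.2 CPM after Ifnb1eGFP supernatant, and 25.2, 25.3 and 21.5 CPM with rIFNβ. The lowest exposed library lay just above the highest unexposed library in the supernatant comparison, and further above it in the medium comparison. The log2 fold changes were 0.40 ± 0.14 (adjusted p = 0.0268) and 0.54 ± 0.14 (adjusted p = 0.00595). The former call was lost when only the compared conditions were fitted (0.40, adjusted p = 0.0614), without eGFP replicate 2 (0.41, adjusted p = 0.0575) or 3 (0.30, adjusted p = 0.103), and without Ifnb1eGFP replicate 2 (0.26, adjusted p = 0.0998). Of these libraries, eGFP replicate 2 is the one with the higher interferon-stimulated genes.

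Nfkbie (chr17:45866585-45874661, plus strand), which encodes IκBε, was at 16.8, 17.2 and 19.5 CPM in untreated controls, 16.2, 15.5 and 16.1 CPM with eGFP supernatant, 12.8, 15.4 and 14.4 CPM after Ifnb1eGFP supernatant, and 14.7, 16.8 and 15.2 CPM with rIFNβ. Exposed libraries lay below unexposed ones in both comparisons by narrow gaps. Neither log2 fold change, −0.16 (95% interval −0.34 to 0.02, adjusted p = 0.122) and −0.20 (−0.38 to −0.02, adjusted p = 0.0585), passed. The latter passed with DESeq2 (−0.25, adjusted p = 0.0141), with RLE factors (−0.25, adjusted p = 0.0165) and with the compared conditions alone (−0.24, adjusted p = 0.0261). It also passed in 4 of the 12 fits that left out a library. With the GC and length trend removed the latter passed as well (−0.19, adjusted p = 0.0217), and the former value was then −0.03 (adjusted p = 0.752). The former passed with RLE factors (−0.20, adjusted p = 0.0469) and without Ifnb1eGFP replicate 2 (−0.22, adjusted p = 0.0459).

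The nuclear IκB proteins bind dimers on DNA and can activate or repress transcription. Nfkbiz and Bcl3, which encode proteins of this kind, had the largest rises among the members. Nfkbiz (chr16:55631738-55659262, minus strand) encodes IκBζ, a co-activator for secondary response genes such as cytokines. It was at 2.19, 3.07 and 2.84 CPM in untreated controls and at 2.53, 3.24 and 3.51 CPM with eGFP supernatant. With Ifnb1eGFP supernatant it was at 7.48, 7.72 and 8.71 CPM, and with rIFNβ at 7.71, 7.40 and 8.31 CPM. Every exposed library lay above the highest unexposed library by a wide margin. The rise was 2.58-fold against eGFP supernatant (log2 fold change 1.37 ± 0.14, adjusted p = 6.85e-06) and 2.88-fold against untreated controls (1.53 ± 0.14, adjusted p = 3.16e-06), and it rested on 69 to 401 counts per library.

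Bcl3 (chr7:19541553-19557570, minus strand), whose product partners with homodimers of the DNA-binding subunits, was at 3.72, 3.19 and 3.67 CPM in untreated controls and at 4.12, 4.70 and 3.26 CPM with eGFP supernatant. It was at 5.23, 9.73 and 6.56 CPM with Ifnb1eGFP supernatant and at 7.86, 8.37 and 7.68 CPM with rIFNβ. The exposed libraries were all higher, with a wide range for Ifnb1eGFP supernatant in the order of its GC deviations. The rise was 1.78-fold (log2 fold change 0.83 ± 0.20, adjusted p = 0.00434) and 2.26-fold (1.18 ± 0.20, adjusted p = 0.000459). The former was 0.55 without Ifnb1eGFP replicate 2, still called, and with the GC and length trend removed the values were 1.12 (adjusted p = 9.26e-07) and 1.29 (adjusted p = 2.76e-07).

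Tnfaip3 (chr10:18874201-18891405, minus strand), which encodes the enzyme that removes activating ubiquitin chains from the signalling complexes and so ends NF-κB activation, was the member called lower in both IFNβ comparisons, and against eGFP supernatant its change was the largest of the members. It was at 68.5, 83.8 and 82.6 CPM in untreated controls and at 95.7, 104.7 and 108.7 CPM with eGFP supernatant. With Ifnb1eGFP supernatant it was at 32.5, 34.5 and 35.4 CPM, and with rIFNβ at 31.9, 30.2 and 30.5 CPM. The exposed libraries were within a narrow range and far below all unexposed ones. The level was 3.02-fold lower with Ifnb1eGFP than with eGFP supernatant (log2 fold change −1.59 ± 0.08, adjusted p = 1.79e-08) and 2.54-fold lower with rIFNβ than in untreated controls (−1.34 ± 0.08, adjusted p = 6.08e-08). Both calls held in every alternative fit run with a threshold on adjusted p alone. Per kilobase of the canonical transcript, Tnfaip3 was the third highest member in the unexposed conditions (11.3 ± 1.2 and 14.9 ± 1.0 CPM per kb). It fell to position 7 with Ifnb1eGFP supernatant and 8 with rIFNβ (4.94 ± 0.22 and 4.47 ± 0.13 CPM per kb, SD, n = 3). There its range overlapped those of Rel, Relb and Bcl3 in the former condition and that of Rel in the latter. These positions depend on the length used.

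**Figure D4:**
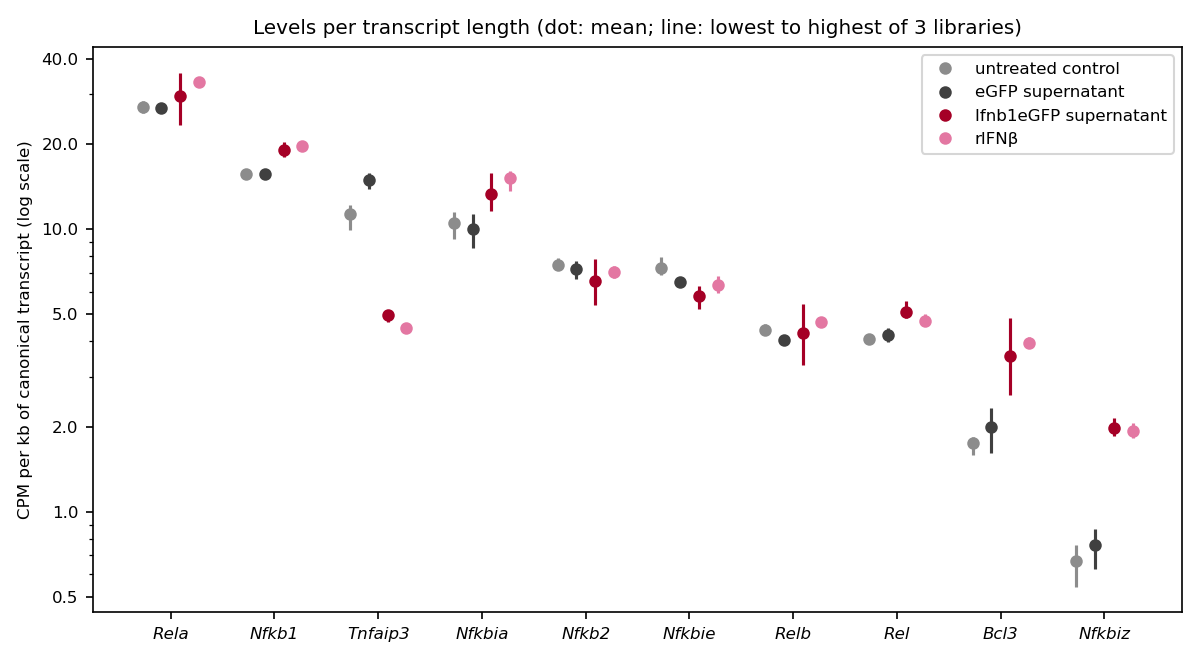
Level of each member in CPM per kb of the canonical transcript (log axis), ordered by the untreated control, as mean (dot) and range of 3 libraries (line) for the 4 conditions. Rela and Nfkb1 are highest in each condition, Nfkbiz is lowest, and Tnfaip3 drops from the level of Nfkbia and Nfkb1 to that of Rel and Relb with IFNβ.

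The study's marker list for the M1-like, proinflammatory state, which the study describes as drawn from the literature, holds 4 of the members. Of these, Nfkbia and Nfkbiz rose, Tnfaip3 fell and Nfkb2 did not pass the test in both IFNβ comparisons.

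Whether the supernatant itself moved the members was asked by comparing eGFP supernatant with untreated control. No member was called, beside 0.299% of all genes (1203 genes were at an unadjusted p under 0.05). Tnfaip3 came nearest. Its 3 eGFP libraries lay above the 3 controls, as did 7.96% of all genes, and the difference was 0.40 (95% interval 0.23 to 0.56, unadjusted p = 0.000269, adjusted p = 0.0709). It passed with DESeq2 (adjusted p = 0.00114) and without the filter on low counts (adjusted p = 0.00944). For Relb and Nfkbie the 3 eGFP libraries lay below the 3 controls, as did those of 7.52% of all genes. The other 9 members, Relb and Nfkbie included, had log2 fold changes from −0.17 to 0.19, and all their intervals contained 0.

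Whether the source of IFNβ mattered was asked by comparing Ifnb1eGFP supernatant with rIFNβ. No member was called by edgeR or by DESeq2, and no member had an unadjusted p under 0.05, beside 0.160% of all genes called and 1288 genes under that unadjusted limit. Only for Tnfaip3 did the libraries not overlap, with higher values after Ifnb1eGFP supernatant (log2 fold change 0.15, adjusted p = 0.613 in edgeR), as for 8.22% of all genes. The intervals were widest for Bcl3 (−0.58 to 0.27) and narrowest for Nfkb1 (−0.16 to 0.06). Without Ifnb1eGFP replicate 2, Rela (−0.33, adjusted p = 0.0407) and Relb (−0.34, adjusted p = 0.0448) were called lower than with rIFNβ. The test of whether the IFNβ effect differed with and without supernatant called no member in edgeR or DESeq2 (0% of all genes, and 661 genes at an unadjusted p under 0.05). Tnfaip3 had the smallest unadjusted p of the members (difference −0.25, 95% interval −0.49 to −0.01, unadjusted p = 0.0419, adjusted p = 0.926). The eGFP and untreated libraries that enter these comparisons are the same ones used above.

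Of 35 listed receptors, adaptors, ubiquitin ligases and kinases, all tested, 20 were called higher and 5 lower with Ifnb1eGFP supernatant (median log2 fold change 0.27), and 22 higher and 5 lower with rIFNβ (0.35). That is 57.1% and 62.9% higher, beside 30.1% and 30.7% of all genes, and 14.3% lower in both, beside 25.0% and 24.6%. This list and those below were chosen with earlier results of these data known, so their shares are a description and not a test. Tlr4, the receptor for lipopolysaccharide, rose from 90.5 ± 4.8 to 210.9 ± 19.3 CPM (SD, n = 3; log2 fold change 1.22, adjusted p = 1.16e-07). Tlr2, the receptor for bacterial lipopeptides, rose from 8.26 ± 0.50 to 18.6 ± 0.9 CPM (1.17, adjusted p = 1.93e-07), and their shared adaptor Myd88 from 68.4 ± 6.3 to 125.5 ± 8.1 CPM (0.88, adjusted p = 6.93e-07). Malt1, the protease of the complex that links antigen and lectin receptors to the kinase, fell from 157.4 ± 15.8 to 23.6 ± 1.7 CPM (−2.74, adjusted p = 4.29e-10). Ikbkg, the regulatory subunit of the IκB kinase, fell from 110.9 ± 4.0 to 76.3 ± 1.3 CPM (−0.54, adjusted p = 4.09e-07), whereas Chuk and Ikbkb, which encode the catalytic subunits and are named here after their values were seen, rose by 0.49 and 0.17. Tlr2 was also higher with eGFP supernatant than in controls (0.51, adjusted p = 0.0251), a call that was lost in 7 of the alternatives at the same limit of adjusted p.

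Of 24 other negative regulators, all tested, 9 were called higher and 3 lower with Ifnb1eGFP supernatant (median 0.18), and 11 higher and 2 lower with rIFNβ (0.30). The 37.5% higher and 12.5% lower in the supernatant comparison stand beside 30.1% and 25.0% of all genes, and the 45.8% and 8.33% with rIFNβ beside 30.7% and 24.6%. Nlrc5, better known as the activator of MHC class I genes, rose from 30.6 ± 11 to 148.3 ± 6.3 CPM (2.28, adjusted p = 1.12e-06). N4bp1, a suppressor of the IκB kinase, rose from 48.1 ± 2.8 to 118.9 ± 4.5 CPM (1.31, adjusted p = 5.55e-09), Ptpn6, a tyrosine phosphatase, from 177.1 ± 7.6 to 304.6 ± 5.6 CPM (0.78, adjusted p = 3.62e-08), and Tnip3, a partner of the Tnfaip3 product, from 39.8 ± 2.2 to 62.2 ± 2.9 CPM (0.64, adjusted p = 8.63e-07). Nfkbid, a further nuclear IκB gene, fell from 26.0 ± 2.9 to 9.04 ± 1.3 CPM (−1.52, adjusted p = 8.85e-07), in the direction opposite to Nfkbiz and Bcl3. Tnip3 was lower with eGFP supernatant than in controls (−0.37, adjusted p = 0.0107), in the direction opposite to Tnfaip3, and this call was lost in 5 of the alternatives at the same limit.

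Of 40 listed NF-κB targets, 34 passed the filter, and 16 were called higher and 10 lower with Ifnb1eGFP supernatant (median 0.33) and 15 higher and 10 lower with rIFNβ (0.38). The shares were 47.1% and 44.1% higher, beside 30.1% and 30.7% of all genes, and 29.4% lower in both, near the 25.0% and 24.6% of all genes. Cxcl10 is both on this list and on that of the interferon-stimulated genes, so these lists are not separate. What raised or lowered the listed targets was not tested. Il10, an anti-inflammatory cytokine, rose from 0.564 ± 0.056 to 7.01 ± 0.41 CPM (3.63, adjusted p = 8.31e-09). Mmp9, a matrix protease, fell from 353.2 ± 45.1 to 10.4 ± 2.3 CPM (−5.09, adjusted p = 1.03e-09), and Csf1, the growth factor of macrophages, from 112.3 ± 1.9 to 53.6 ± 1.6 CPM (−1.07, adjusted p = 7.42e-08). Fth1, the heavy chain of ferritin, fell by 0.70 (adjusted p = 2.01e-08). Bcl2a1b, a survival gene, fell by 0.85 (adjusted p = 1.66e-07), was higher with eGFP supernatant than in controls (0.42, adjusted p = 0.00892) and higher with Ifnb1eGFP supernatant than with rIFNβ (0.63, adjusted p = 0.000746). The eGFP call was lost without untreated replicate 1 (adjusted p = 0.0521) or 2 (adjusted p = 0.0506), and the latter when only the compared conditions were fitted (adjusted p = 0.0528). The values of Fth1 and Bcl2a1b are uncertain, because near-identical gene copies or pseudogenes share their reads.

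**Figure D5:**
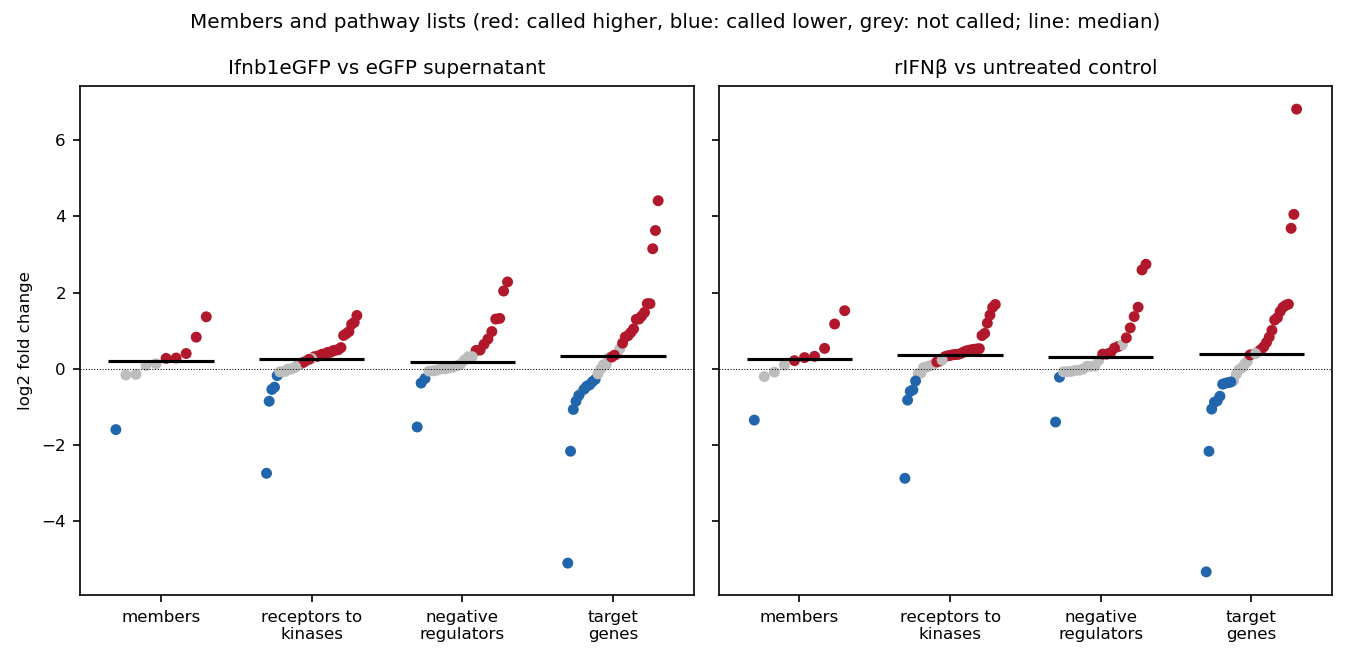
Log2 fold change (vertical axis) of the members and of the tested genes of the 3 pathway lists in both IFNβ comparisons, each gene a dot (red called higher, blue called lower, grey not called) and the median a line. The medians lie above 0 in each list, and the members with the largest fall and rise, Tnfaip3 and Nfkbiz, lie inside the range of the target genes.

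Across the 12 libraries, the patterns of centred log2 CPM most like that of Nfkbiz were those of Trim25 (root mean square difference 0.113), Kif9 (0.122) and Xdh (0.127), and Bcl3, the nearest member, ranked 801 (0.386). Those most like Tnfaip3 were the macrophage lysozyme gene Lyz2 (0.0832), the linker histone gene H1f2 (0.096) and Spp1, the gene of osteopontin (0.122). The mean of Lyz2 was 4111 CPM after Ifnb1eGFP supernatant, compared to 12396 CPM after eGFP supernatant (log2 fold change −1.59). The sum of the 8 macrophage markers, which include Lyz2, was 10502 to 10720 CPM after Ifnb1eGFP supernatant, compared to 18252 to 18802 CPM after eGFP supernatant. Without Lyz2, the other 7 markers summed to 6398 to 6596 CPM and 5974 to 6160 CPM, respectively. With rIFNβ and in untreated controls that sum was 6315 to 6479 CPM and 5589 to 5877 CPM. It lay slightly higher in exposed libraries, but it mixes genes of unlike spread. Over all 12 libraries, Fcgr1 ranged from 48.8 to 1294 CPM and Itgam from 317 to 1627 CPM. The sum therefore does not give the direction of the other markers, and whether the number of macrophages differed was not tested.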

How the data were processed

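Total RNA libraries (TruSeq Stranded) of 12 BMDM samples were quantified by the authors with RSEM 1.3.3, and the deposited table holds expected counts (12.0% of values not whole), with a genome named as GRCm39 and mm10 together. Positions given here are from GENCODE M39 (GRCm39). Expected counts were rounded and tested with edgeR 4.0.16 (filterByExpr, TMM factors, quasi-likelihood test, 12 libraries in 1 model with condition as the term, Benjamini-Hochberg adjustment over 15033 genes) in R 4.3.3; a call is an adjusted p of at most 0.05. The scripts were tested on simulated data. CPM are normalized for TMM, and levels between genes are given per kb of the Ensembl canonical transcript. DESeq2 1.42.0, other scaling, no filter, a replicate block, the compared conditions alone, the study's limits and each library left out were alternatives. Named pathway genes are the 5 smallest adjusted p of each list in the supernatant comparison and all list genes called between supernatants and media; the genes most like Nfkbiz and Tnfaip3 are the 3 with the smallest root mean square difference. Members and lists were chosen with earlier results of these data known. Ddx58, a listed interferon-stimulated gene, had no match by symbol.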

Additional observations from a re-analysis of the deposited data

How the results depend on the processing

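The members and the pathway lists changed little in number of calls in both IFNβ comparisons, except under the study's limits on fold change, where 0 members, 1 upstream gene, 2 negative regulators and 5 targets were called in each. Leaving out each library gave 5 to 7 members with Ifnb1eGFP supernatant (main 6) and 5 to 8 with rIFNβ (main 7). The upstream genes then ranged from 22 to 26 and 23 to 29, the negative regulators from 10 to 12 and 11 to 16, and the targets from 24 to 27 and 23 to 25. Nfkb2 reversed once the GC and length trend was removed (0.24 and 0.17, both called), where the members called were 8 and 9. Counts in the comparisons between supernatants and media were small and unstable. For eGFP supernatant against control, 1 member (Tnfaip3) was called with no filter, with the replicate block and with DESeq2. The single upstream gene and the single negative regulator became 0 when only the compared conditions were fitted and 0 under the study's limits, and ranged from 0 to 1 without a library. The targets were 2 with RLE factors, 3 with no filter, 4 with the block, 4 with DESeq2, 2 with the GC trend removed, 0 under the study's limits and 0 to 2 without a library. For Ifnb1eGFP supernatant against rIFNβ, leaving out a library gave 0 to 2 members, 0 to 4 upstream genes, 0 to 3 negative regulators and 1 to 4 targets, with the highest values all without Ifnb1eGFP replicate 2. Its targets were 2 with no filter, 2 with the block, 0 with only the compared conditions, 3 with DESeq2, 2 with the GC trend removed and 0 under the study's limits. The cause of these changes was not tested. Of 940 refitted values of members, 41 changed their call and 37 changed sign without a call. The labels do not say what a replicate number stands for, so same-numbered libraries were not treated as pairs in the main fit. Their deviations correlated above 0.1 in 13 of 18 pairs (mean 0.148), beside 1 of 36 pairs with different numbers (mean −0.074). Of the libraries, 12 of 12 correlated best with their own number, so a shared origin of same-numbered libraries remains possible. The replicate block gave 6 and 8 members in the IFNβ comparisons, with Nfkbie called in the latter (−0.20, adjusted p = 0.0427), and Tnfaip3 called with eGFP supernatant (0.40, adjusted p = 0.0246). Depth gave each member at least 69 counts in each library.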

Other observations

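Of the 40 listed NF-κB targets, 6 did not pass the filter on low counts and were near the limit of detection in every condition. Il6, the gene of a pyrogenic cytokine, had 33 counts in all 12 libraries together and at most 8 in a library, Il12b and Il23a, the cytokines that direct T-cell responses, had 7 and 9 counts, and Csf2 had 4. Lcn2 and Saa3, which encode acute-phase proteins, had 21 and 79 counts in all.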
